A study of Mus musculus with 9 samples.

Results

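Sialyltransferases are the Golgi enzymes that add sialic acid to the ends of the sugar chains on proteins and lipids. The transcripts of 9 of them were followed across 3 kinds of mouse B cell: St3gal1, St3gal2, St3gal3, St3gal4, St3gal6, St6gal1, St6galnac4, St6galnac6 and St8sia4. These 9 genes were taken by name from the 22178 genes of the deposited table, and all 9 were among the 11099 genes that passed the filter on low values. The measure was RNA-seq of polyadenylated RNA, given as TPM, a share of all transcripts in the library that corrects for transcript length and for the total of each library.

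The enzymes fall into classes by the linkage they make and the sugar they attach to. ST3GAL enzymes cap galactose in one linkage and ST6GAL enzymes in another, ST6GALNAC enzymes act on N-acetylgalactosamine, and ST8SIA enzymes add sialic acid onto sialic acid. On B cells the cap made by St6gal1 is the preferred ligand of the inhibitory receptor Cd22, a sialic acid binding lectin of the Siglec family.

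Each group held 3 libraries, 9 in all. B2 cells were taken from spleen, and the strain given for them is VH12B1-8/Vk4. B2B1 and B1 cells were both taken from the peritoneal cavity, and the strain given for both is B1-8VH12/Vk4. All 3 groups were on a C57BL/6 background. In the B2B1 group a switch of the B cell receptor had been induced about 30 days before isolation, and the labels give neither the age of the mice nor the sort gates. They do not say either that 1 library stands for 1 animal, and p-values measure the spread between these libraries, which may be technical in part. Tissue, strain label and cell type change together between B2 and the other groups, and their parts cannot be told apart.

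The deposited values summed to between 894515 and 943043 TPM per library, and 10711 to 10945 genes reached 1 TPM in each. B cell markers were high in all libraries, with summed TPM of 9592 to 9838 in B2, 8465 to 9818 in B2B1 and 8510 to 10577 in B1. The 4 genes typical of splenic B cells (Fcer2a, Cr2, Icosl and Ccr6) summed to 2310 to 2615 TPM in B2, 7.59 to 17.3 in B2B1 and 15.7 to 26.8 in B1. The 6 B1 markers summed to 38.9 to 47.0, 3730 to 4231 and 3963 to 4938 TPM in the same order. Cd5, one of these 6, was low in B2B1, at 1.22 to 1.85 TPM, against 13.4 to 22.9 TPM in B1 and 0.609 to 1.09 TPM in B2. By Xist and the Y-linked gene Ddx3y, B2 library 2 and B2B1 libraries 1 and 2 came from males and the other 6 libraries from females, so B2 and B2B1 each held libraries from more than 1 animal.

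Upstream sequences are shown first for some of the members. Each is the 120 bases before a RefSeq start on GRCm38.p6. Where annotated exons lie in that window, only the 30 bases that end with the GC box nearest the start are shown. Those stretches were picked by the GC box and do not reach the start. They are written from 5′ to 3′ on the strand of the gene in lower case, and capitals mark GC boxes (GGGCGG or CCGCCC, on both strands, overlapping matches each counted). St6gal1, which fell in B2B1, has 3 RefSeq starts. St3gal6 fell in both peritoneal groups, St3gal4 had the largest difference of the 9 genes, and St3gal3 passed the test in no comparison.
St6gal1 start 1, chr16:23224620-23224739, plus strand: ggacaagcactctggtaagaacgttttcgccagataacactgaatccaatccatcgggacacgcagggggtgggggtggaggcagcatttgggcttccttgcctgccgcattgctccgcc
St6gal1 start 2, chr16:23225901-23226020, plus strand: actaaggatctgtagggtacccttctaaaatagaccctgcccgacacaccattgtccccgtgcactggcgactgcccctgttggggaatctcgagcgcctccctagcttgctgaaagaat
St6gal1 start 3, chr16:23290350-23290469, plus strand: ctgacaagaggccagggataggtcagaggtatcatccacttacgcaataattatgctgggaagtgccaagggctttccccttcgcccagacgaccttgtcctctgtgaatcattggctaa
St3gal6 start 1, chr16:58524254-58524373, minus strand: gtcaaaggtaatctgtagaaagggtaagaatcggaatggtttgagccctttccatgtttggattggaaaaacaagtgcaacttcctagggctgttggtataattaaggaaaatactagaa
St3gal6 start 2, chr16:58523473-58523502, minus strand: ggtaggagccagagagcacggctaCCGCCC
St3gal4, chr9:35116878-35116907, minus strand: ggccccttccCCGCCCcCCGCCCcCCGCCC
St3gal3, chr4:118134947-118135066, minus strand: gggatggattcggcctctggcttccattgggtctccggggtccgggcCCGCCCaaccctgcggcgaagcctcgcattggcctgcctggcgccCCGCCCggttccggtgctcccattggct

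Over the 250 bases before each start, the 3 St6gal1 windows and the first St3gal6 window held no GC box, and their GC content was 47.2%, 52.8%, 49.6% and 34.8%. The second St3gal6 window held 4 GC boxes, the St3gal4 window 3 and the St3gal3 window 2. Of the members with a window that is not shown, St6galnac4 had 3 GC boxes, St8sia4 had 1 and St6galnac6 had none. Their GC content was 65.2%, 60.4% and 51.6%. Except for its last 10 bases, the St6galnac6 window lies within the end of St6galnac4, the gene next to it. Of all 32851 RefSeq windows of that length, 32.7% held at least 1 GC box and 8.47% held 3 or more. The deposited TPM are given per gene, so the separate starts of St6gal1 and St3gal6 cannot be told apart in the values below. The table of windows matched 7 of the 9 members.

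The 9 genes moved apart rather than together. Between B1 and B2, St3gal1, St3gal2, St3gal4 and St6galnac6 were higher in B1, St3gal6 and St8sia4 were lower, and 3 did not pass the test (limma on log2(TPM + 1), one model over the 9 libraries, Benjamini-Hochberg adjusted p under 0.05). Of all genes tested, 51.9% were called in this comparison, 18.0% higher and 33.9% lower. The same 4 genes were called higher in B2B1 than in B2, and 3 were called lower (St3gal6, St6gal1 and St8sia4), where 63.0% of all genes were called, 21.0% higher and 42.0% lower. Between B2B1 and B1, St6galnac6 was called higher and St3gal1, St3gal4 and St6gal1 lower, where 19.0% of all genes were called, 6.93% higher and 12.1% lower. So many genes differed between these groups that a count of 6, 7 or 4 of 9 called is read here only gene by gene.

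The median log2 difference of the 9 genes was 0.38 for B1 against B2, 0.01 for B2B1 against B2 and -0.40 for B2B1 against B1. Over all genes tested it was -0.14, -0.19 and -0.06. In the same order of comparisons, the 2 groups compared did not overlap for 6, 7 and 4 of the 9 genes, and for 61.7%, 72.2% and 35.7% of all genes tested. B1 against B2 and B2B1 against B2 share the B2 libraries, so the calls they have in common are not independent.

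**Figure D1:**
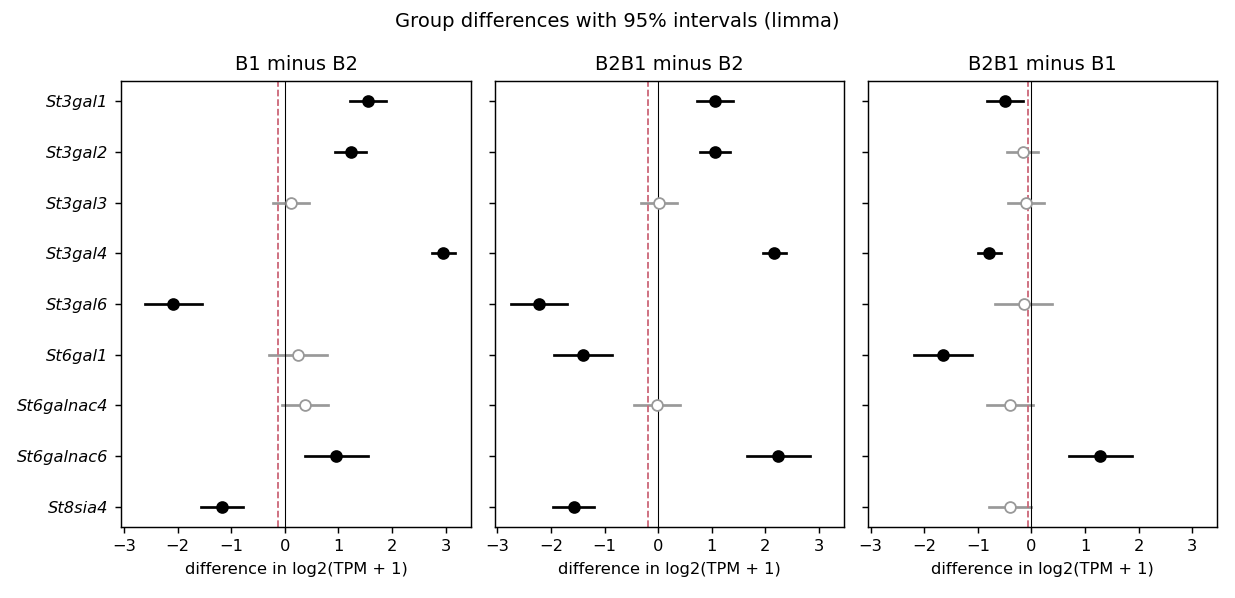
Log2 differences of log2(TPM + 1) with 95% confidence intervals for the 9 sialyltransferase genes in each of the 3 comparisons, 3 libraries a group; filled points passed the test and the red dashed line is the median of all genes tested. St3gal4 lies farthest to the right against B2 in B1 (2.95), and St3gal6 farthest to the left (-2.08).

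St6gal1, on chromosome 16 (GRCm38 chr16:23224740-23360350, plus strand), encodes the enzyme that caps N-glycans and so makes the Cd22 ligand. It stood at 179, 198 and 150.3 TPM in the 3 B2 libraries, at 48.7, 93.6 and 61.7 TPM in the B2B1 libraries and at 264, 169 and 202 TPM in the B1 libraries. All 3 B2B1 libraries were below every B2 and B1 library, while the B2 and B1 values overlapped. The mean in B2B1 was 2.58-fold lower than in B2 (log2 difference -1.40, 95% interval -1.94 to -0.86, limma adjusted p = 0.000793). It was 3.11-fold lower than in B1 (log2 -1.65, -2.19 to -1.11, adjusted p = 0.00216). B1 and B2 were not called different, with a log2 difference of 0.25 and an interval of -0.29 to 0.79 (adjusted p = 0.401). Libraries 1 and 2 of B2B1 were male and all B1 libraries female, and with sex in the model the B2B1 to B1 difference was -1.78 (adjusted p = 0.0118). St6gal1 shares 200 of its 4916 exonic bases with BC106179 on the opposite strand (GENCODE vM21).

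St3gal1 and St3gal2 encode the enzymes that cap the core galactose of O-linked glycans, and St3gal2 also acts on gangliosides. St3gal1 (chr15:67102875-67176830, minus strand) was the most abundant ST3GAL transcript in every library. Its levels were 82.4, 73.3 and 101 TPM in B2, 176, 154 and 208 TPM in B2B1, and 220.5, 249 and 285 TPM in B1. The 3 groups did not overlap, and their order was B2, B2B1, B1. The log2 difference from B2 was 1.55 ± 0.15 (SE) in B1 (adjusted p = 3.58e-05) and 1.06 ± 0.15 in B2B1 (adjusted p = 0.000248). The step from B1 to B2B1 was smaller, a log2 difference of -0.49 with an interval of -0.82 to -0.16, and only just passed (adjusted p = 0.0489). It did not pass when any 1 of 7 of the 9 libraries was left out, at log2 differences between -0.39 and -0.58, nor with sex in the model (log2 -0.27, adjusted p = 0.278).

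St3gal2 (chr8:110919922-110972480, plus strand) stood at 14.9, 13.4 and 12.5 TPM in B2, 27.6, 32.4 and 28.5 TPM in B2B1 and 28.5, 32.0 and 40.0 TPM in B1. All 6 peritoneal libraries were above all B2 libraries, and the B2B1 and B1 values overlapped. The log2 difference from B2 was 1.23 ± 0.13 (SE) in B1 (adjusted p = 5.75e-05) and 1.06 ± 0.13 in B2B1 (adjusted p = 9.77e-05). Between B2B1 and B1 it was -0.17 with an interval of -0.45 to 0.12 (adjusted p = 0.390), which does not show that the 2 groups are alike.

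**Figure D2:**
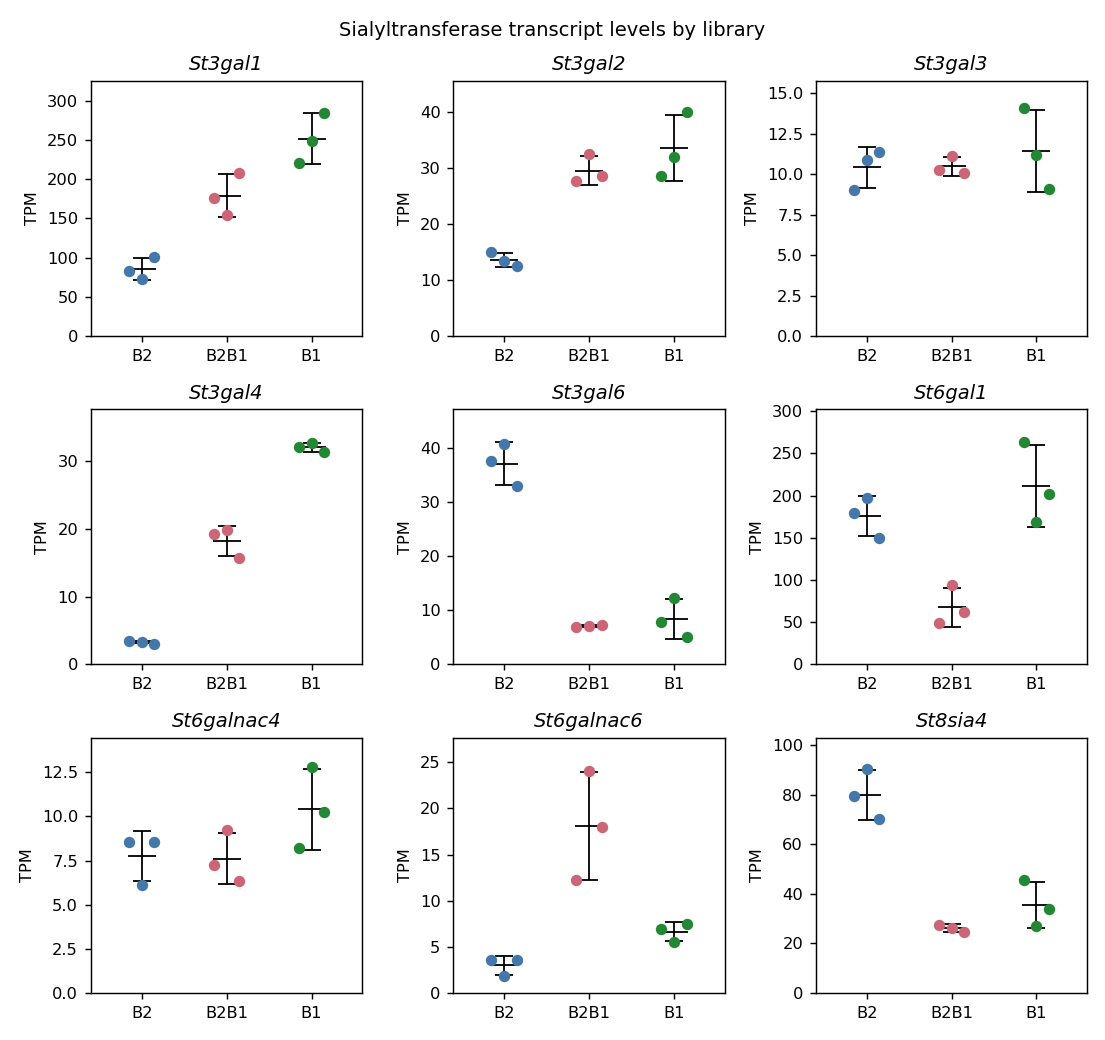
TPM of each of the 9 sialyltransferase genes in every library, by group, with the mean and SD over 3 libraries; each panel has its own linear axis. The 3 B2B1 libraries lie below all others for St6gal1 (48.7 to 93.6 TPM) and above all others for St6galnac6 (12.3 to 24.0 TPM).

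St3gal3, St3gal4 and St3gal6 encode the ST3GAL enzymes that cap galactose at the ends of N-glycan and lactosamine chains, and St3gal4 and St3gal6 are known for building selectin ligands. The 3 genes went 3 different ways. St3gal4 (chr9:35046576-35119268, minus strand) stood at 3.41, 3.28 and 3.08 TPM in B2, at 19.2, 19.8 and 15.7 TPM in B2B1 and at 32.0, 32.7 and 31.3 TPM in B1. No 2 groups overlapped. The mean was 9.82-fold higher in B1 than in B2 (log2 2.95 ± 0.10, adjusted p = 5.87e-08) and 5.59-fold higher in B2B1 than in B2 (log2 2.17 ± 0.10, adjusted p = 3.05e-07). B2B1 was 1.75-fold lower than B1 (log2 -0.79, interval -1.0 to -0.57, adjusted p = 0.000975).

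St3gal4 shares 412 of its 2923 exonic bases with 4930581F22Rik on the opposite strand. That gene stood at 4.11 ± 0.34 TPM in B2, 8.30 ± 0.43 in B2B1 and 12.7 ± 1.59 in B1 (mean ± SD, n = 3), in the same order as St3gal4. The library kit did not mark strand, so reads from the shared bases cannot be assigned by strand, and the same holds for St6gal1 and the genes with such overlaps below.

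St3gal6 (chr16:58468125-58524243, minus strand) went the other way. Its levels were 37.6, 40.8 and 33.0 TPM in B2, 7.0, 7.08 and 7.31 TPM in B2B1 and 7.82, 12.4 and 5.14 TPM in B1. Every peritoneal library was below every B2 library, and the 2 peritoneal groups overlapped. The mean was 4.40-fold lower in B1 (log2 -2.08 ± 0.23, adjusted p = 9.76e-05) and 5.20-fold lower in B2B1 (log2 -2.22 ± 0.23, adjusted p = 4.53e-05) than in B2. The B2B1 to B1 difference was -0.14 with an interval of -0.67 to 0.39 (adjusted p = 0.708). The gene shares 1603 of its 6172 exonic bases with Dcbld2 on the opposite strand, which was at or below 0.477 TPM in every library.

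St3gal3 (chr4:117932154-118134914, minus strand) showed no called difference. Its levels were 9.0, 10.9 and 11.4 TPM in B2, 10.2, 11.2 and 10.1 TPM in B2B1 and 14.1, 11.2 and 9.06 TPM in B1. The 3 groups overlapped. The intervals of its log2 differences were -0.23 to 0.45 for B1 against B2, -0.32 to 0.35 for B2B1 against B2 and -0.43 to 0.24 for B2B1 against B1 (limma adjusted p of 0.566, 0.95 and 0.689).

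St6galnac4 and St6galnac6 lie head to tail on chromosome 2, 10 bases apart, both on the plus strand (chr2:32587095-32599698 and chr2:32599709-32620806). St6galnac4 encodes an enzyme that adds sialic acid to capped O-glycans, and St6galnac6 one that acts on gangliosides and related glycolipids. St6galnac6 stood at 3.60, 1.83 and 3.56 TPM in B2, at 12.3, 24.0 and 17.9 TPM in B2B1 and at 6.90, 5.49 and 7.52 TPM in B1. No 2 groups overlapped, and B2B1 was the highest. The mean in B2B1 was 6.04-fold that in B2 (log2 2.24 ± 0.26, adjusted p = 8.03e-05) and 2.73-fold that in B1 (log2 1.28, interval 0.70 to 1.87, adjusted p = 0.0103). B1 was 2.22-fold higher than B2 (log2 0.96, interval 0.37 to 1.55, adjusted p = 0.0127). Its levels are low. Without the filter on low values the last 2 differences missed the threshold, at limma adjusted p = 0.0503 and 0.0548. That setting also raised the adjusted p of the more abundant St3gal1 in B2B1 against B1 to 0.151.

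St6galnac4, next to it, stood at 8.54, 6.10 and 8.58 TPM in B2, 7.28, 9.22 and 6.35 TPM in B2B1 and 8.21, 12.8 and 10.2 TPM in B1. The groups overlapped, and no comparison passed. The intervals were -0.05 to 0.81 for B1 against B2, -0.45 to 0.41 for B2B1 against B2 and -0.83 to 0.03 for B2B1 against B1 (limma adjusted p of 0.123, 0.932 and 0.173).

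St8sia4 (chr1:95587682-95667571, minus strand) encodes a polysialyltransferase, which builds chains of sialic acid on a small number of carrier proteins. It stood at 79.3, 90.2 and 70.0 TPM in B2, 27.4, 26.3 and 24.4 TPM in B2B1 and 45.6, 26.9 and 34.0 TPM in B1. All peritoneal libraries were below all B2 libraries. The mean was 2.25-fold lower in B1 (log2 -1.17 ± 0.17, adjusted p = 0.000457) and 3.06-fold lower in B2B1 (log2 -1.57 ± 0.17, adjusted p = 5.37e-05). B2B1 against B1 did not pass (log2 -0.40, interval -0.79 to -0.02, adjusted p = 0.133). Without B1 library 2 that difference was -0.58 and passed (adjusted p = 0.0241).

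Because TPM is a per-length measure, the levels of the members can be added within a library. The 5 ST3GAL transcripts summed to 150.0 ± 9.97 TPM in B2, 245 ± 22.7 in B2B1 and 337 ± 33.9 in B1 (mean ± SD, n = 3), without overlap between groups. St6gal1 stood at 176 ± 23.8, 68.0 ± 23.1 and 212 ± 48.2 TPM in the same order. The 2 ST6GALNAC transcripts summed to 10.7 ± 2.43, 25.7 ± 6.94 and 17.0 ± 1.70 TPM. By these means the St6gal1 transcript was above the ST3GAL sum in B2 and below it in both peritoneal groups, while the 2 ranges overlapped in B2 (150.3 to 198 against 142 to 161 TPM). These are transcript levels, and in bulk samples fewer cells of a type and less RNA per cell cannot be told apart.

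As a share of the summed TPM of the 9 genes, St6gal1 made up 42.1 ± 3.55% in B2, 18.5 ± 5.51% in B2B1 and 35.0 ± 6.16% in B1. St3gal1 made up 20.7 ± 4.55%, 49.3 ± 7.47% and 42.0 ± 5.94%. By mean share St6gal1 came first in B2 and St3gal1 in B2B1 and B1, although in B1 library 1 St6gal1 was the higher of the pair. St8sia4 took 19.1 ± 1.42% in B2, 7.19 ± 0.89% in B2B1 and 5.86 ± 1.25% in B1. St3gal6 took 8.90 ± 0.48% in B2, against 1.96 ± 0.11% and 1.44 ± 0.73% in B2B1 and B1, while St3gal4 took 0.783 ± 0.032%, 5.03 ± 0.82% and 5.35 ± 0.50%. The sum itself was 416 ± 22.0 TPM in B2, 364 ± 24.7 in B2B1 and 601 ± 43.1 in B1.

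**Figure D3:**
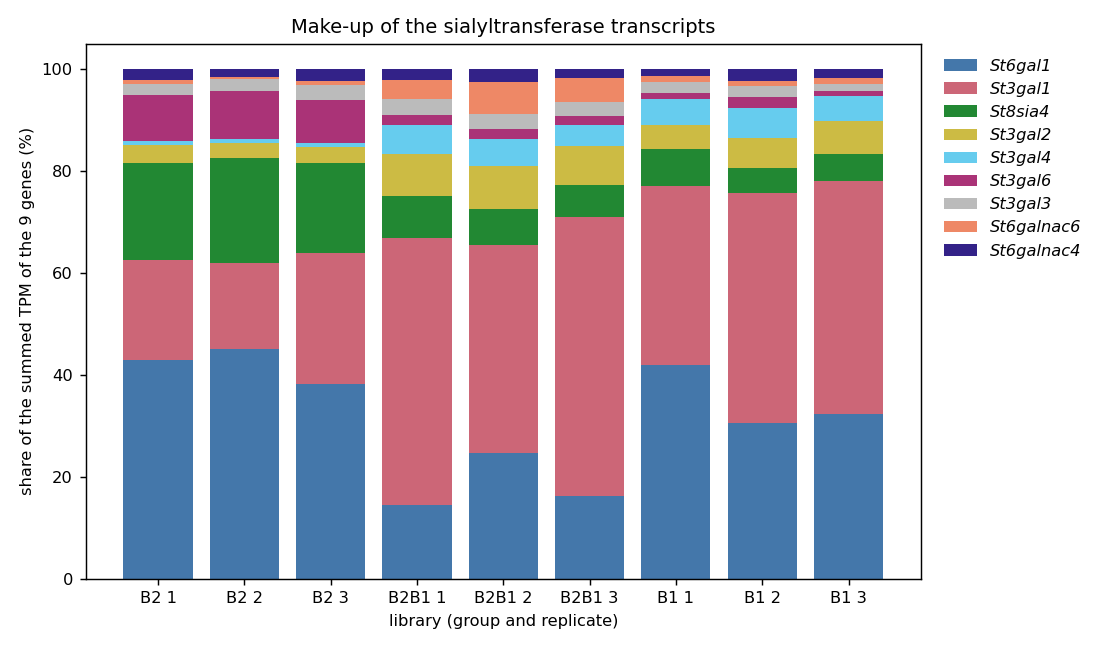
Share of each of the 9 genes in their summed TPM, in percent, for each library; 1 stacked bar a library, from 0 to 100%. St6gal1 takes a mean of 42.1% in the B2 bars and 18.5% in the B2B1 bars, and St3gal1 20.7% and 49.3%.

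The table held 11 further sialyltransferase genes, of which 3 passed the filter. St8sia6, which encodes an enzyme that adds sialic acid onto the capped ends of O-glycans, stood at 9.11, 8.06 and 6.84 TPM in B2, 107, 70.5 and 62.0 TPM in B2B1 and 31.8, 41.6 and 37.4 TPM in B1. No 2 groups overlapped. The log2 difference from B2 was 2.07 in B1 (adjusted p = 3.26e-05) and 3.13 in B2B1 (adjusted p = 2.10e-06), and B2B1 was higher than B1 by 1.06 (adjusted p = 0.00674). The last difference did not pass with sex in the model (0.89, adjusted p = 0.0570). St8sia6 shares 112 exonic bases with Gm37126 on the opposite strand. With all 20 genes, St8sia6 took 1.84% of the summed TPM in B2, 17.8% in B2B1 and 5.81% in B1, and the sum was 435 ± 23.6, 449 ± 3.17 and 640.3 ± 38.9 TPM.

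St6galnac3, for an enzyme of O-glycans and gangliosides, stood at 3.81 ± 0.70 TPM in B2, 0.267 ± 0.149 in B2B1 and 0.228 ± 0.055 in B1. It was called lower in both peritoneal groups than in B2, by log2 differences of -1.92 in B2B1 and -1.96 in B1 (adjusted p = 1.20e-05 and 1.56e-05). St3gal5, which encodes the enzyme that makes the ganglioside GM3, stood at 6.09 ± 1.13, 3.13 ± 1.33 and 1.03 ± 0.17 TPM in B2, B2B1 and B1. It was called lower in B2B1 (log2 -0.81, adjusted p = 0.00993) and in B1 (log2 -1.79, adjusted p = 0.000161) than in B2. It was called higher in B2B1 than in B1 (log2 0.98, adjusted p = 0.0162), a call lost without B1 library 3 (0.92, adjusted p = 0.0525) and with sex in the model (0.75, adjusted p = 0.114). The other 8 genes were under the filter, and St6gal2, St8sia2 and St8sia5 were listed at 0 in all 9 libraries.

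Around the sialyltransferases, 5 more lists covered the making of the sialic acid donor, its removal, its O-acetylation, the lectins that bind it and the glycans that accept it. With the other sialyltransferases these 6 lists held 55 genes of the table, of which 35 were tested. In B1 against B2, 12 were called higher and 10 lower. In B2B1 against B2 the counts were 11 and 15, and in B2B1 against B1 they were 7 and 7. Over all genes tested 18.0% were called higher and 33.9% lower in the first comparison, 21.0% and 42.0% in the second and 6.93% and 12.1% in the third. The median log2 difference of the 35 genes was 0.08, -0.26 and -0.07, beside -0.14, -0.19 and -0.06 over all genes. Scaling each library by the median of its gene ratios moved the first split from 12 and 10 to 16 and 7, and over all genes it moved the share of higher calls from 34.7% to 52.1%.

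Of the donor genes, 7 were tested, of which 3 were called higher and 2 lower in B1 than in B2, 2 and 2 in B2B1 than in B2, and 1 and 2 in B2B1 than in B1, beside 51.9%, 63.0% and 19.0% of all genes called in either direction. Gne encodes the rate-limiting enzyme of sialic acid synthesis. It stood at 23.3 ± 0.24 TPM in B2, 21.8 ± 1.56 in B2B1 and 34.8 ± 3.10 in B1 (mean ± SD, n = 3), so B1 was higher than B2 (log2 0.56, adjusted p = 0.000510) and B2B1 lower than B1 (log2 -0.65, adjusted p = 0.00113). Cmah encodes the hydroxylase that turns the common sialic acid into its glycolyl form, the form that mouse Cd22 prefers. It stood at 108 ± 5.62, 70.8 ± 11 and 116 ± 12.6 TPM, lower in B2B1 than in B2 (log2 -0.61, adjusted p = 0.00156) and than in B1 (log2 -0.70, adjusted p = 0.00425). Both genes, like St6gal1, were called lower in B2B1 than in B1. Of the other donor genes tested, Renbp was called higher in that comparison (log2 0.73, limma adjusted p = 0.00273) and 4 were not called. In female libraries only, with 1 in B2B1, the differences between B2B1 and B1 were smaller in size, at -0.47 for Cmah and 0.57 for Renbp. Renbp, an epimerase of N-acetylglucosamine, stood at 8.86 ± 0.78, 46.4 ± 4.67 and 27.6 ± 3.18 TPM, with log2 differences from B2 of 2.26 in B2B1 (adjusted p = 5.05e-07) and 1.54 in B1 (adjusted p = 5.99e-06). Nanp, the phosphatase of the pathway, was called lower in B2B1 (log2 -0.53, adjusted p = 0.00151) and in B1 (log2 -0.37, adjusted p = 0.0123) than in B2. The second call was lost without B2 library 1 (log2 -0.30, adjusted p = 0.0529) and under scaling by median ratios (log2 -0.23).

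Of the 4 tested genes of sialic acid removal and lysosomal export, none was called higher and 2 lower in B1 than in B2, 1 and 2 in B2B1 than in B2, and 1 and none in B2B1 than in B1. The share of all genes called was 51.9%, 63.0% and 19.0%, so 2 of 4 in the first comparison is close to it. The lysosomal sialidase Neu1 stood at 49.4 ± 4.01 TPM in B2, 22.0 ± 4.26 in B2B1 and 28.4 ± 1.77 in B1. Ctsa, which encodes the protein that stabilises Neu1 in the lysosome, stood at 142 ± 5.40, 52.9 ± 6.50 and 55.0 ± 7.09 TPM. Both were called lower in both peritoneal groups, Neu1 by log2 differences of -1.15 and -0.78 (adjusted p = 8.74e-05 and 0.00125) and Ctsa by -1.42 and -1.36 (adjusted p = 7.37e-06 and 1.28e-05) in B2B1 and B1. Neither passed between B2B1 and B1. Slc17a5, the lysosomal exporter of sialic acid, was called higher in B2B1 than in B2 (log2 0.58, adjusted p = 0.000912) and than in B1 (log2 0.51, adjusted p = 0.00906), the latter not with sex in the model (log2 0.42, adjusted p = 0.0741).

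O-acetyl groups on sialic acid block Cd22 binding. Siae, the esterase that removes them, stood at a mean of 12.4 TPM in B2, 15.1 in B2B1 and 21.9 in B1. It was called higher in B1 than in B2 (log2 0.77, adjusted p = 0.000102) and lower in B2B1 than in B1 (log2 -0.50, adjusted p = 0.00523). The step from B2 to B2B1 was 0.27 (adjusted p = 0.0239) and did not pass without B2 library 2, B2 library 3, B2B1 library 1 or B2B1 library 2. Casd1, which adds the group, was called lower in B2B1 than in B2 (log2 -0.33, adjusted p = 0.0102), a call that scaling by median ratios ended (log2 -0.13).

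Of the 8 lectins listed in the files, 3 passed the filter. Cd22 stood at 681 ± 12.9 TPM in B2, 358 ± 78.8 in B2B1 and 329 ± 56.7 in B1, and was called lower in B2B1 (log2 -0.95, adjusted p = 0.000688) and in B1 (log2 -1.06, adjusted p = 0.000507). Between B2B1 and B1 the difference was 0.11 (adjusted p = 0.649). Siglecg, the inhibitory lectin of B1 cells, stood at 763 ± 19.4, 644 ± 18.6 and 807 ± 63.5 TPM. It was called lower in B2B1 than in B2 (log2 -0.25, adjusted p = 0.00864) and than in B1 (log2 -0.32, adjusted p = 0.00964), the latter not with sex in the model (log2 -0.29, adjusted p = 0.0749). Under scaling by median ratios the first of these was -0.04 and did not pass (adjusted p = 0.598), and the B1 to B2 difference, 0.08 as deposited, was 0.22 and passed (adjusted p = 0.0145). Siglece, a lectin of myeloid cells, had means of 1.84, 0.884 and 1.19 TPM and was called lower in B2B1 than in B2 (log2 -0.60, adjusted p = 0.00930).

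Of the genes that build the accepting glycans, 16 were tested, of which 7 were called higher and 3 lower in B1 than in B2, 6 and 5 in B2B1 than in B2, and 3 and 3 in B2B1 than in B1. The first 2 of these counts are near the 51.9% and 63.0% of all genes called, and in the third comparison 19.0% of all genes were called. Mgat4b, which adds an N-glycan branch, stood at 3.79 ± 0.07 TPM in B2, 27.5 ± 2.30 in B2B1 and 18.5 ± 1.71 in B1, for log2 differences from B2 of 2.57 (adjusted p = 1.04e-07) and 2.02 (adjusted p = 4.41e-07). Fut8, which adds the core fucose, stood at 19.0 ± 0.67, 135 ± 22.2 and 63.0 ± 6.24 TPM, for log2 differences of 2.75 (adjusted p = 2.28e-07) and 1.67 (adjusted p = 5.08e-06), and was higher in B2B1 than in B1 (log2 1.08, adjusted p = 0.000526). Man2a2, a mannosidase of N-glycan maturation, had means of 53.5, 179 and 174 TPM and was called higher in both peritoneal groups than in B2 (log2 1.72 and 1.68, adjusted p = 1.36e-07 and 1.68e-07). B4galt3 is only among the genes whose enzymes add the galactose that St6gal1 caps. It had means of 58.4, 25.0 and 35.1 TPM and was called lower in both peritoneal groups (log2 -1.19 and -0.72, adjusted p = 6.24e-07 and 1.57e-05).

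**Figure D4:**
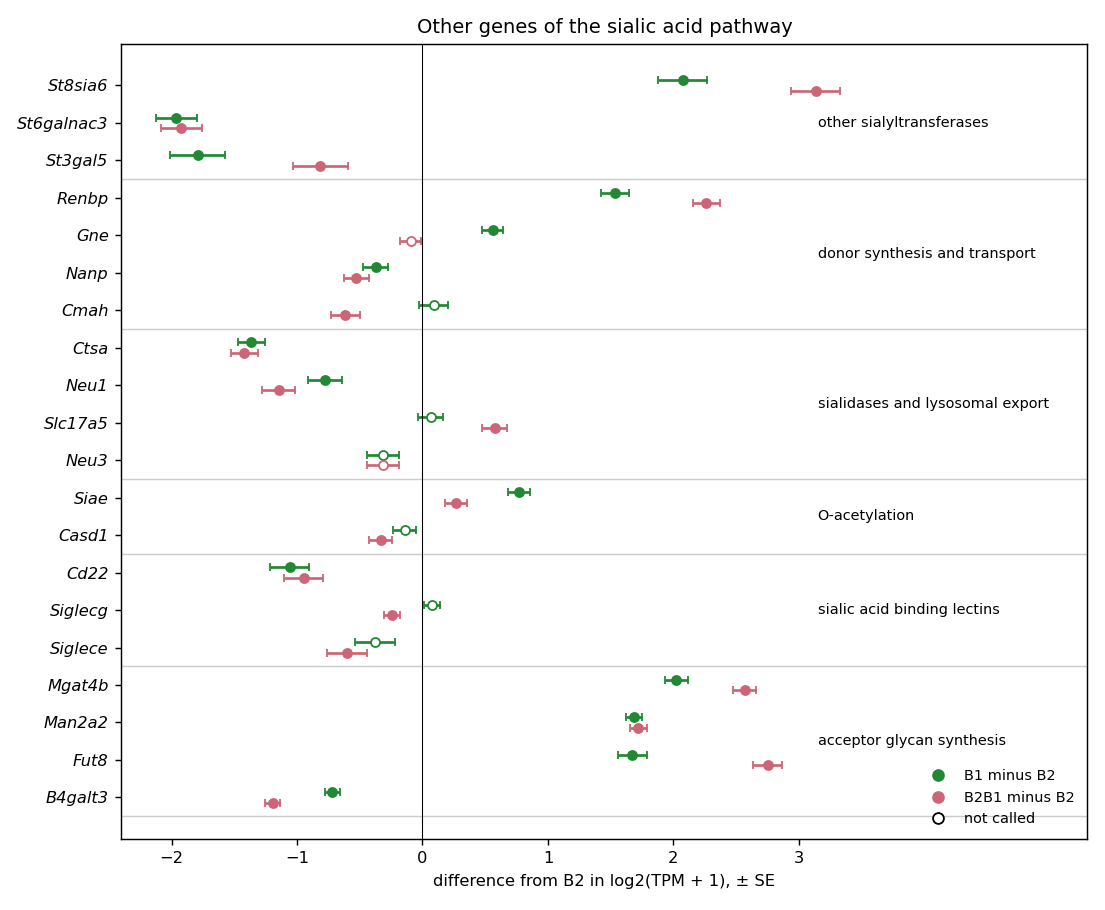
Log2 differences from B2 (± SE, 3 libraries a group) in B1 and B2B1 for the named genes of the 6 pathway lists; open points did not pass the test. St8sia6 (3.13 and 2.07), Fut8 (2.75 and 1.67) and Mgat4b (2.57 and 2.02) lie far to the right in B2B1 and B1, and Ctsa (-1.42 and -1.36) to the left.

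The 2 members with the largest log2 differences were also set beside all tested genes by the Pearson correlation of log2(TPM + 1) over the 9 libraries. These correlations mostly carry the differences between 3 groups and are given as a description. For St3gal4 the closest were Lztfl1 (r = 0.997), Sbf2 (0.996) and Rasgrp1 (0.995), and 244 genes were above 0.95. Lztfl1 had means of 11.3, 33.3 and 44.2 TPM in B2, B2B1 and B1, the order of St3gal4. For St6galnac6, highest in B2B1, the closest were Gipc3 (r = 0.983), Hs1bp3 (0.978) and Vat1 (0.967), and 17 genes were above 0.95. Vat1 had means of 8.82, 87.5 and 33.6 TPM.

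Marker lists of other cells differed between the groups to unequal degrees. The 8 macrophage markers in the table summed to 1.25 to 2.63 TPM in B2, 66.8 to 258 in B2B1 and 21.3 to 47.9 in B1, with the highest value in B2B1 library 1, and Csf1r, a defining macrophage receptor, stood at 0.141 to 0.163, 0.458 to 2.13 and 0.0837 to 0.448 TPM. Emr1 and Lyz2 made up most of the sum in both peritoneal groups. Emr1 had means of 0.384, 44.0 and 18.1 TPM in B2, B2B1 and B1, and Lyz2 0.965, 82.6 and 17.9 TPM. Within B1 these 2 genes did not move together. Emr1 stood at 19.7 TPM and Lyz2 at 1.22 TPM in library 1, against 13.6 and 30.9 TPM in library 2. Like Lyz2, C1qa, C1qb and Csf1r were lowest in B1 library 1. In B1 libraries 1, 2 and 3, C1qa stood at 0.0697, 1.21 and 1.76 TPM and C1qb at 0.214, 1.02 and 1.46 TPM. In B2B1 each of the 8 markers was highest in library 1, where C1qa reached 7.77 TPM and C1qb 11.7 TPM. At 0 were 2 of the 8 markers in each B2 library and none in B2B1. Of the 4 that were tested, 4 were called higher in B2B1 than in B2, 2 in B2B1 than in B1 and 1 in B1 than in B2. Of all genes tested, 21.0% were called higher in B2B1 and 18.0% in B1 than in B2, and 6.93% in B2B1 than in B1. The 5 plasma cell markers summed to 154 to 172, 301 to 385 and 232 to 309.8 TPM, with 4 called higher in B2B1 and 3 in B1 than in B2. Xbp1 had means of 89.8, 95.7 and 98.3 TPM in B2, B2B1 and B1, and Irf4 71.9, 153 and 112 TPM. Derl3 had means of 3.22, 77.3 and 36.7 TPM, and Sdc1 0.654, 1.87 and 0.801 TPM. Prdm1 stood at 0.471 to 0.764 TPM in B2, 6.496 to 20.83 in B2B1 and 10.87 to 23.99 in B1. It was called higher in B2B1 and B1 than in B2 (log2 3.12 and 3.35, limma adjusted p = 0.000123 and 0.000116). Between B2B1 and B1 it was not called different (log2 -0.23, limma adjusted p = 0.714). The 5 T cell markers summed to 6.35 to 8.83, 4.23 to 8.01 and 16.3 to 18.9 TPM, and 1 of the 3 tested was called higher in B1 than in B2. In B2B1 against B1, 2 of the 3 were called lower, where 12.1% of all genes were. Most of the higher sum in B1 was Cd3g, with means of 0.122 TPM in B2, 0.373 in B2B1 and 7.81 in B1. Cd3d, also highest in B1, had means of 5.10, 3.48 and 7.41 TPM in the same order. Cd3e was at or below 0.0837 TPM in every library, and Cd8a had means of 1.91, 1.85 and 1.85 TPM. The 5 cycling markers summed to 10.2 to 12.9, 34.8 to 82.6 and 12.9 to 61.4 TPM, highest in B2B1 library 1 and, within B1, in library 2, and 4 were called higher in B2B1 than in B2 and none in the other comparisons. The part of these cells in the differences above was not tested. Without B2B1 library 1 and B1 library 2, 4 members were called higher and 2 lower in B1 than in B2, where 2085 and 4121 of all 11083 genes tested were. The counts were 4 and 3 in B2B1 against B2 (2231 and 4781 of all genes) and 1 and 3 in B2B1 against B1 (865 and 1292). In the last comparison St3gal1 then lost its call (adjusted p = 0.136) and St8sia4 gained one (log2 -0.62, adjusted p = 0.0364). Without B2B1 library 1 alone, St6gal1 in B2B1 was lower than in B2 by a log2 difference of -1.19 (limma adjusted p = 0.00240) and lower than in B1 by -1.44 (adjusted p = 0.00610).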

How the data were processed

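The authors deposited one table of gene TPM for the 9 libraries. Reads were base-called with CASAVA 1.8.2 and quantified with kallisto (version not given in the sources used here) against mm10, per the submitters' processing notes. TPM keeps no depth, so the reads behind each value are unknown and no counting interval is given. Libraries came from polyadenylated RNA with a kit that does not mark strand, per the labels' protocols. No 2 of the 36 pairs of libraries held identical values.

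Genes with a mean of at least 1 TPM (11099 of 22178) were tested on log2(TPM + 1), so differences of low genes are understated. One limma 3.58.1 model (R 4.3.3, trended variance) covered the 3 groups, with Benjamini-Hochberg adjustment over all tested genes of a comparison and a threshold of 0.05. It was tested on simulated data. Exact permutation of 3 against 3 libraries cannot go below p = 0.1 and was not used.

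The 9 members and the pathway and marker lists were chosen with earlier results of these data known. All members are named. From each pathway list up to 4 genes with the smallest adjusted p in any comparison are named, and for the 2 members with the largest difference the 3 genes of highest correlation. Alternatives were other pseudocounts (0.1 and 0.5), no filter or a minimum mean of 5 TPM, other scalings, 2-group fits, sample weights, a sex term, a replicate block and leaving out each library. Leaving out 2 libraries together and using female libraries only were added after seeing the data. Loci come from GENCODE vM21 (GRCm38) and upstream windows from RefSeq (GRCm38.p6). The authors' separate signature table was not used here.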

Additional observations from a re-analysis of the deposited data

How the results depend on the processing

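Over the alternatives, 531 of 567 recomputed differences of the 9 genes kept their direction and side of the threshold, 18 lost the call, 2 gained it and 16 changed sign. For the named pathway genes 1192 of 1250 did, 31 lost it, 8 gained it and 19 changed sign. Without a filter on low values, 0 members were called higher in B2B1 than in B1, instead of 1 (St6galnac6, adjusted p = 0.0503). Over all genes 595 of 22178 were then called higher, instead of 769 of 11099. With a sex term the pathway counts for B2B1 against B1 were 4 higher and 4 lower instead of 7 and 7, while over all genes they were 342 and 500 instead of 769 and 1339. In female libraries only (1 in B2B1, assumed to vary like the others), they were 2 and 1 (181 and 211 over all genes), 9 were lower in B2B1 than in B2 instead of 15 (2767 instead of 4663 over all genes), and Cd22 and Cmah in B2B1 against B2 missed the threshold (log2 -0.59 and -0.36, adjusted p = 0.0556 and 0.105). Over all 20 sialyltransferase genes, St3gal1 made up 40.0% of the sum in B2B1 instead of 49.3%.

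The sign changes were of log2 differences that were not called in the fit as reported, and the cause was not tested. St6galnac4 in B2B1 against B2 (-0.02) was 0.16 with median ratios, 0.074 with quantiles, 0.0015 without B2B1 library 1 and B1 library 2, and -0.16 to 0.087 leaving out each library. St3gal3 in B2B1 against B2 (0.01) was -0.017 with a sex term, -0.010 in females and -0.080 to 0.073 leaving out each library. Its ranges were -0.040 to 0.25 in B1 against B2 and -0.24 to 0.052 in B2B1 against B1. St3gal6 in B2B1 against B1 (-0.14) was 0.028 with sample weights, 0.16 without both libraries and -0.42 to 0.14 leaving out each. Gne in B2B1 against B2 was 0.10 with median ratios and 0.091 with quantiles, and Siglecg in B1 against B2 was -0.032 with quantiles. In B2B1 against B1, Ctsa was 0.0046 with median ratios, 0.015 with a sex term, 0.035 in females and -0.11 to 0.049 leaving out each library. Neu3 was 0.048 with median ratios, 0.054 with quantiles and -0.075 to 0.081 leaving out each. Man2a2 was -0.0013 with a sex term, -0.077 in females and -0.0078 to 0.095 leaving out each. St6galnac3 was -0.081 in females and -0.055 to 0.10 leaving out each, and Cd22 was -0.058 to 0.24. Slc17a5 in B1 against B2 was -0.011 to 0.15.

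Replicate numbers did not pair the libraries: 1 of 9 same-numbered pairs had deviations correlated above 0.1. With the replicate block the members' counts were 4 and 2, 4 and 3, and 1 and 3, and the pathway counts 10 and 10, 11 and 15, and 7 and 8. Over all 11099 genes the counts were then 1962 and 3571, 2284 and 4571, and 670 and 1067.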
